A study of Mus musculus with 16 samples.

Results

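The genes described here encode proteins that carry a cell through mitosis, from entry at the end of G2 to the final cut between daughter cells. The set holds 49 genes, chosen by name as known mitotic genes and not by a cutoff on their values. Earlier results of these data were known when they were chosen. A gene entered when the array had a probe carrying its current or an older symbol, and where several probes did, the one with the highest mean intensity stood for it. By this rule 48 of the 49 had a probe, and all 48 were kept among the 23337 genes measured, well above background in the sample channel on all 16 arrays. Aurkb was not analysed here.

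The study injected the eyes of C57Bl6 mouse pups and profiled whole retinas 24 h later on 2-colour arrays, with each retina sample labelled with Cy3 and set against a common reference, a pool of equal RNA amounts from the experiment, labelled with Cy5. There were 5 VEGF-A arrays (1 µg of the vessel growth factor VEGF-A), 4 Dll4-Fc arrays (4 µg of the Notch ligand Dll4 fused to an antibody Fc part), 3 VEGF Trap arrays (a soluble decoy receptor that binds VEGF-A) and 4 hFc arrays (4 µg of the Fc part alone, the control). The VEGF-A, Dll4-Fc and hFc pups were 8 days old at injection, and the labels give neither a dose nor an age for VEGF Trap. All 4 groups are of the same strain, and no label says which samples came from separate animals, so each p-value measures the spread between these samples, which may be technical. The title codes of hFc 1 and hFc 2 share their first part, which the labels do not explain, and they were counted as 2 samples. With the pair averaged into 1, 41 mitotic genes were called in VEGF-A, 13 in Dll4-Fc and 13 in VEGF Trap, each against hFc, where 42, 16 and 14 were called with both.

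Most mitotic genes are silent in resting cells and are switched on together in late S phase and G2. Their promoters often carry a CCAAT box, bound by the factor NF-Y, and a cell cycle genes homology region (CHR), through which the MuvB complex represses them in resting cells and, with B-Myb and Foxm1, activates them in dividing cells. In the retina of a mouse pup, vessels are still growing over the inner surface, and endothelial cells, glia and the last retinal progenitors are the cells known to divide.

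Values below are log2 of sample over reference, so a value of 0 is the level of the pool and a difference between groups is a log2 difference. A gene was called at a Benjamini-Hochberg adjusted p under 0.05, from limma, over all genes tested in that comparison. Across the arrays 84.9 to 91.0% of spots were well above background in the sample channel, and no spot was saturated. The hFc arrays filled a slide of their own, as did the Dll4-Fc arrays, and the remaining 2 slides held VEGF-A and VEGF Trap together, so slide and treatment cannot be told apart in any comparison with hFc or Dll4-Fc. Spots marked as outliers numbered 2350 to 2599 on hFc arrays and 12 to 213 on the others, and they removed 1 value of a mitotic gene, Aurka on hFc 2. All 6 of 6 rod markers and 8 of 8 Müller glia markers were measured. Lens and pigment epithelium markers differed widely between arrays of the same group. Their mean was -2.53, -2.23 and -2.19 on hFc 1, hFc 2 and hFc 3 and 1.60 on hFc 4.

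The mitotic genes rose together in VEGF-A retinas. Against hFc, 42 of 48 rose and 0 fell, where 5.89% of all genes tested rose and 4.3% fell, and the median log2 difference was 1.35 (2.54-fold), against -0.045 over all genes. In Dll4-Fc retinas 16 rose and 0 fell against hFc, where 3.06% of all genes rose and 1.52% fell, with a median difference of 0.32 (1.25-fold) against -0.016 over all genes. In VEGF Trap retinas 14 fell and 0 rose against hFc, where 2.43% of all genes fell and 1.3% rose, with a median of -0.32 (1.25-fold lower) against -0.025 over all genes. Counted by an unadjusted p under 0.05, limma gave 42 higher and 0 lower in VEGF-A, 30 higher and 0 lower in Dll4-Fc, and 26 lower and 3 higher in VEGF Trap. The share of all genes at that looser cutoff was not counted, so these counts have no background beside them.

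The mean over the 48 genes kept the arrays of each group apart from those of every other group. It was 0.72 to 0.98 on the 5 VEGF-A arrays, -0.23 to -0.12 on the 4 Dll4-Fc arrays, -0.90 to -0.77 on the 3 VEGF Trap arrays and -0.61 to -0.43 on the 4 hFc arrays. The group means ran VEGF-A, Dll4-Fc, hFc, VEGF Trap from high to low in 34 of the 48 genes (70.8%), against 7.12% of all genes with a mean in each group. A whole retina holds many cell types, and in such bulk samples a change in the number of cells of a type and a change in RNA per cell cannot be told apart.

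**Figure D1:**
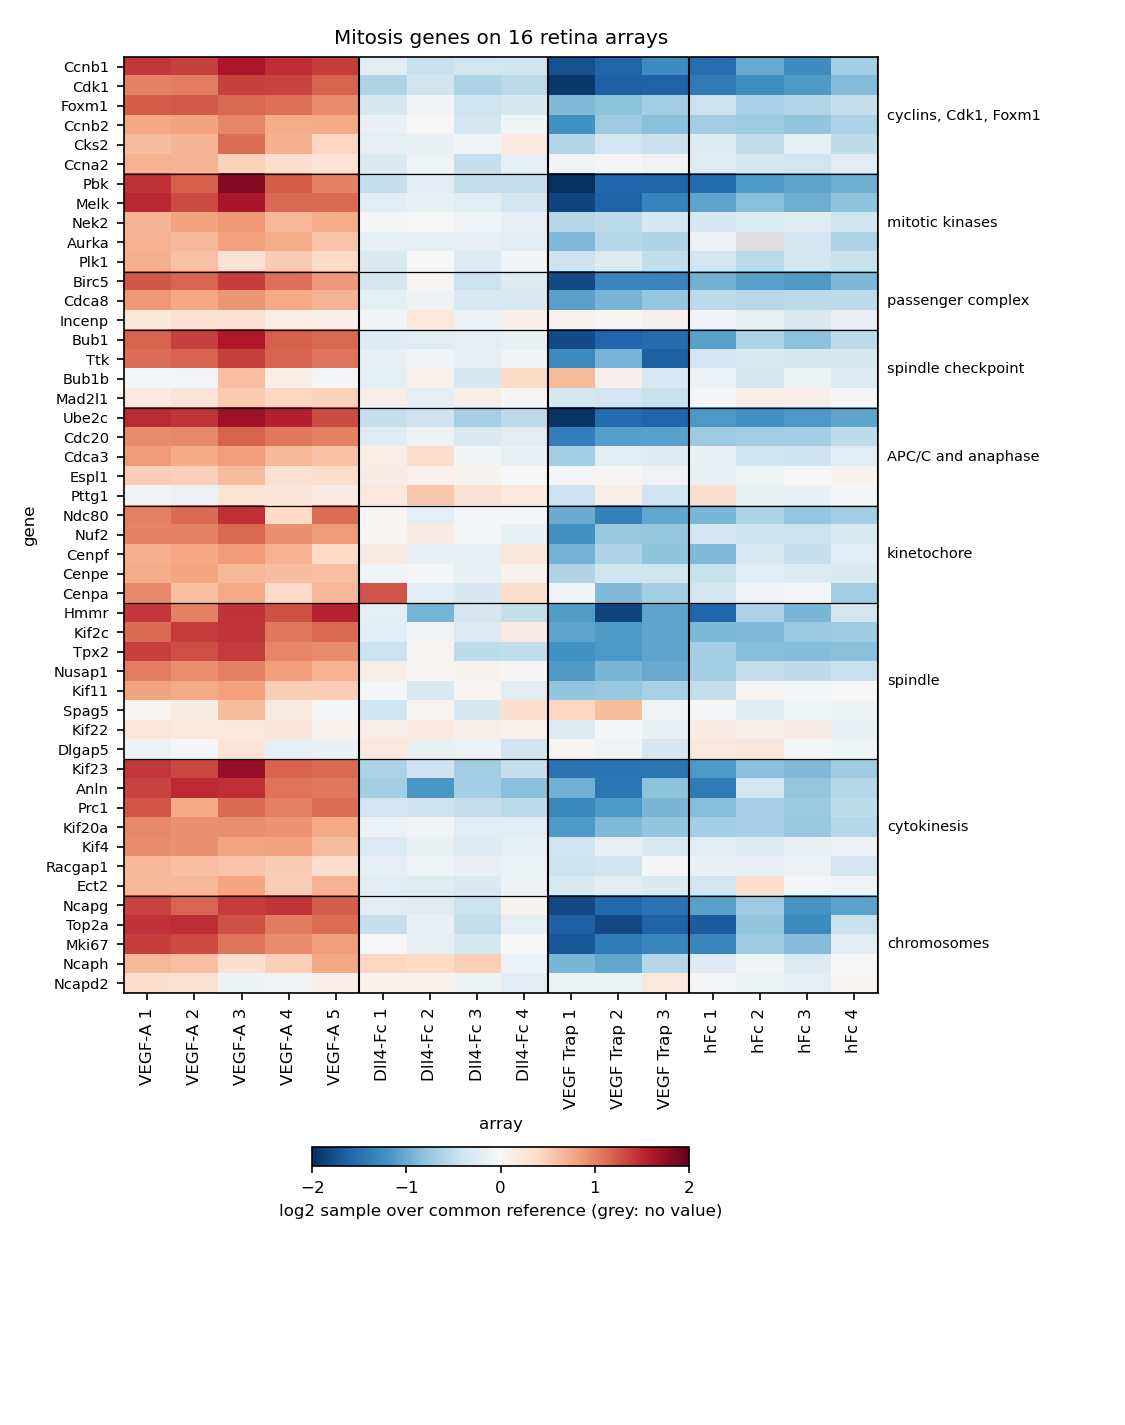
Log2 of sample over reference for the 48 mitotic genes (rows, by role, largest VEGF-A rise at the top of each role) on the 16 arrays (columns, by treatment), with red above and blue below the reference pool and grey for the missing value. The 5 VEGF-A columns are red for most genes and the VEGF Trap and hFc columns are blue, while a few rows (Bub1b, Spag5, Kif22, Dlgap5, Pttg1 and Ncapd2) show no such pattern.

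Promoter windows show what the genes share that did not enter the choice. RefSeq windows of build GRCm38.p6, from 250 bases before to 50 bases after the annotated start, were found for 41 of the 48 genes, and none for Ccna2, Foxm1, Pbk, Incenp, Tpx2, Dlgap5 and Kif20a. The CHR was searched as TTTGAA or TTCGAA on both strands and the CCAAT box as CCAAT on both strands. A CHR lay in 30 of the 41 windows (73.2%), against 16.1% of the 14607 windows of tested genes, and within 50 bases of the start in 27 of 41 (65.9%), against 3.95%. A CCAAT box lay in 31 (75.6%), against 38.3%, and at least 2 matches in 22 (53.7%), against 13.3%, where CCAATTGG counts as 2 matches. Both motifs were present in 27 windows (65.9%), against 6.65%. The E2F site, searched as TTCGCGC or GGCGGGA on both strands, lay in 12 (29.3%), against 18.7%. These are matches of letters and not measured binding.

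Some windows are shown with the CHR and CCAAT matches in capitals (a match on the other strand reads TTCAAA or ATTGG), in lower case elsewhere. The first 3 belong to the genes with the lowest p in VEGF-A against hFc among those with both motifs. The last 2 belong to the genes of lowest p among those not called there, so that the same letters can be seen with and without a call.
Ube2c, chr2:164769679-164769978, plus strand: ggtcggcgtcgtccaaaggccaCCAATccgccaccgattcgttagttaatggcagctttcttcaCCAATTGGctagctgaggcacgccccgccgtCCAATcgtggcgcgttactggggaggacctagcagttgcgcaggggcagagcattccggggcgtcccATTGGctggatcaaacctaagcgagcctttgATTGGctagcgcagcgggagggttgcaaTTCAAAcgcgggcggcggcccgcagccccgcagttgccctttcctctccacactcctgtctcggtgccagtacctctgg
Cdc20, chr4:118437294-118437593, minus strand: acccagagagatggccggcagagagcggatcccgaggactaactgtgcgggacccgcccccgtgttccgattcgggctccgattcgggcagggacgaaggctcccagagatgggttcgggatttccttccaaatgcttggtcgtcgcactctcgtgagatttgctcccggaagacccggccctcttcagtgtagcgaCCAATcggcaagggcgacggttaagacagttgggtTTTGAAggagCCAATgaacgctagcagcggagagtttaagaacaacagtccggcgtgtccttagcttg
Cdk1, chr10:69352863-69353162, minus strand: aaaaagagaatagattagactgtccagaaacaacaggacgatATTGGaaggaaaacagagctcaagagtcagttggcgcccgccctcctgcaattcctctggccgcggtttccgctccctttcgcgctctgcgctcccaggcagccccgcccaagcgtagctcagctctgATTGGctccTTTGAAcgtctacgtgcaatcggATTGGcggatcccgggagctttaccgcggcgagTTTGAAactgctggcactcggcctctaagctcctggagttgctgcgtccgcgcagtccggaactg
Bub1b, chr2:118597961-118598260, plus strand: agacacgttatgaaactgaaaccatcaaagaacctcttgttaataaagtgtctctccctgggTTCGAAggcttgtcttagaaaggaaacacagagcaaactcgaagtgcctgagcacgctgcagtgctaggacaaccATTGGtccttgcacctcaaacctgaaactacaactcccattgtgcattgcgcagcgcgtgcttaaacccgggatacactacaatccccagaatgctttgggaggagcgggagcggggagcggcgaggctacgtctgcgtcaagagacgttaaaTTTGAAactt
Kif22, chr7:127042371-127042670, minus strand: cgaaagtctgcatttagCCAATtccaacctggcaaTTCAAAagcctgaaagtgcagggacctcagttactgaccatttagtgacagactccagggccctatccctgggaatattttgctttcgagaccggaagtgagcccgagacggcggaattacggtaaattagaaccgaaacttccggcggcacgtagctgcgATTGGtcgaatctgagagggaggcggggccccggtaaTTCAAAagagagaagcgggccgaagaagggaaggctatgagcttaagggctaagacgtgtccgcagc
The Ube2c window holds 6 CCAAT matches and, 29 bases before the start, a CHR. Of these CCAAT matches 2, at 186 and 183 bases before the start, overlap on opposite strands in CCAATTGG. In the Cdc20 window a CHR lies between 2 CCAAT boxes close to the start. The Cdk1 window has 2 CHR matches, at 71 and 15 bases before the start, with a CCAAT box between them and 2 upstream. The Bub1b and Kif22 windows hold 2 CHR matches each, those of Bub1b at 188 bases before and 40 bases after the start. Of the 5 genes with a window that were not called in VEGF-A, 4 (80.0%) held both motifs, and of the 36 called ones 23 (63.9%) did.

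**Figure D2:**
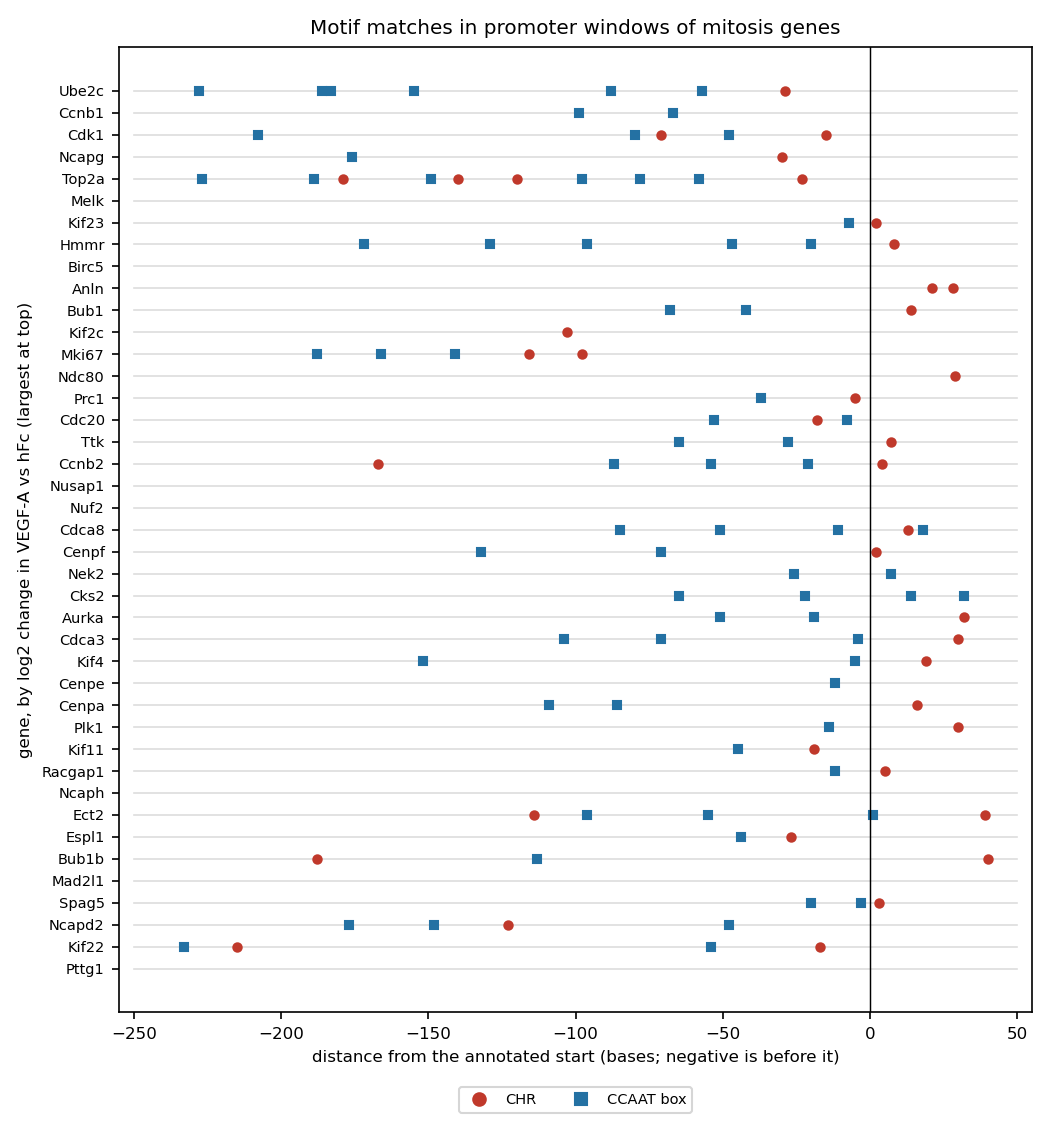
Positions of CHR (circles) and CCAAT (squares) matches in the 41 promoter windows, as distance in bases from the annotated start, with genes ordered by their log2 difference between VEGF-A and hFc. CHR matches gather close to the start, within 50 bases in 27 windows, with CCAAT boxes mostly before them, at the top and at the bottom of the order alike.

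The cyclins and Cdk1 start mitosis: B-type cyclins bind and activate the kinase Cdk1, Cks2 is a small subunit of that kinase, cyclin A2 acts earlier in S and G2, and Foxm1 is a transcription factor for G2 and M genes. All 6 rose in VEGF-A retinas, 3 rose in Dll4-Fc retinas and 1 fell in VEGF Trap retinas, each against hFc. Cdk1 was at 1.01, 1.03, 1.36, 1.35 and 1.17 on the VEGF-A arrays, -0.61, -0.40, -0.61 and -0.54 on the Dll4-Fc arrays, -1.93, -1.63 and -1.61 on the VEGF Trap arrays and -1.41, -1.22, -1.13 and -0.87 on the hFc arrays. Every VEGF-A array lay above the pool and every other array below it, with Dll4-Fc arrays above all hFc arrays and VEGF Trap arrays below them. The log2 difference from hFc was 2.34 in VEGF-A (5.07-fold, adjusted p = 1.93e-09), 0.62 in Dll4-Fc (1.53-fold, adjusted p = 0.00555) and -0.57 in VEGF Trap (1.48-fold, adjusted p = 0.0302). The VEGF Trap call of Cdk1 was lost in 7 of 18 alternatives, with -0.3 (adjusted p = 0.226) after background correction by normexp and loess. Its Dll4-Fc call was lost in 2 of 19. They were normexp and loess (0.482, adjusted p = 0.0647) and the mean of all its probes (0.464, adjusted p = 0.148).

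Foxm1 was at 1.21, 1.22, 1.15, 1.09 and 0.94 on the VEGF-A arrays, -0.33, -0.062, -0.40 and -0.32 on the Dll4-Fc arrays, -0.88, -0.83 and -0.69 on the VEGF Trap arrays and -0.43, -0.66, -0.59 and -0.46 on the hFc arrays. The groups kept the same order with no overlap with hFc, but only the VEGF-A difference was called (1.66, 3.15-fold, adjusted p = 3.38e-09), with 0.26 (adjusted p = 0.176) in Dll4-Fc and -0.26 (adjusted p = 0.14) in VEGF Trap. Cyclin B1 (Ccnb1) was at 1.41, 1.37, 1.61, 1.48 and 1.38 on the VEGF-A arrays, -0.23, -0.44, -0.37 and -0.40 on the Dll4-Fc arrays, -1.74, -1.60 and -1.25 on the VEGF Trap arrays and -1.52, -1.01, -1.25 and -0.67 on the hFc arrays. Its hFc arrays were spread over most of a log2 unit, and the VEGF Trap arrays overlapped them. Ccnb1 rose 5.90-fold in VEGF-A (adjusted p = 6.95e-09) and 1.68-fold in Dll4-Fc (adjusted p = 0.00645). The other 2 Ccnb1 probes gave smaller, uncalled Dll4-Fc differences of 0.387 (adjusted p = 0.214) and 0.341 (adjusted p = 0.206). Ccnb2 rose in both as well, by 1.51 and 0.57 on the log2 scale, and Cks2 and Ccna2 rose in VEGF-A alone of the 3 comparisons, by 1.07 and 0.79. Whether those rises differ from the Dll4-Fc ones was tested in the comparison of Dll4-Fc with VEGF-A, given further on.

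Of the mitotic kinases measured besides Cdk1, all 5 rose in VEGF-A, Melk and Pbk rose in Dll4-Fc, and Melk fell in VEGF Trap. Melk, a kinase found mostly in dividing cells, was at 1.51, 1.305, 1.64, 1.13 and 1.13 on the VEGF-A arrays, -0.22, -0.15, -0.23 and -0.36 on the Dll4-Fc arrays, -1.84, -1.61 and -1.33 on the VEGF Trap arrays and -1.06, -0.84, -0.98 and -0.80 on the hFc arrays. Its 4 groups did not overlap, and it rose 4.80-fold in VEGF-A (adjusted p = 4.47e-09) and 1.60-fold in Dll4-Fc (adjusted p = 0.00391) and fell 1.60-fold in VEGF Trap (adjusted p = 0.0172). Pbk, a kinase active in mitosis, was at 1.45, 1.19, 1.82, 1.21 and 1.00 on the VEGF-A arrays, -0.46, -0.21, -0.48 and -0.47 on the Dll4-Fc arrays, -2.07, -1.58 and -1.60 on the VEGF Trap arrays and -1.54, -1.14, -1.05 and -0.98 on the hFc arrays. The groups again lay apart, with VEGF-A 3 the highest array and VEGF Trap 1 the lowest. Pbk rose 5.71-fold in VEGF-A (adjusted p = 4.39e-08) and 1.71-fold in Dll4-Fc (adjusted p = 0.0153).

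Nek2, which parts the centrosomes, was at 0.69, 0.81, 0.87, 0.67 and 0.73 on the VEGF-A arrays, -0.023, -0.011, -0.065 and -0.16 on the Dll4-Fc arrays, -0.57, -0.52 and -0.33 on the VEGF Trap arrays and -0.36, -0.27, -0.24 and -0.40 on the hFc arrays. Here Dll4-Fc arrays sat at the pool and above every hFc array, and VEGF Trap overlapped hFc. Nek2 rose 2.11-fold in VEGF-A (adjusted p = 3.92e-08), with a difference of 0.25 (adjusted p = 0.0713) in Dll4-Fc. Aurora A (Aurka), the kinase of the spindle poles, rose 2.09-fold in VEGF-A (adjusted p = 8.9e-06) over 3 measured hFc arrays. Plk1, which acts from mitotic entry to cytokinesis, rose 1.89-fold in VEGF-A (adjusted p = 4.89e-06). Neither was called in Dll4-Fc (0.18 for Aurka and 0.28 for Plk1).

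The chromosomal passenger complex, in which Incenp, survivin (Birc5) and borealin (Cdca8) hold the kinase Aurora B at centromeres and later at the midzone, rose in VEGF-A with all 3 measured members. Cdca8 was at 0.87, 0.78, 0.88, 0.75 and 0.68 on the VEGF-A arrays, -0.18, -0.10, -0.30 and -0.31 on the Dll4-Fc arrays, -1.09, -0.93 and -0.78 on the VEGF Trap arrays and -0.52, -0.55, -0.52 and -0.53 on the hFc arrays. Its hFc arrays differed by less than 0.1 and no group overlapped another, and it was called in all 3 comparisons with hFc, at 1.32 ± 0.072 (adjusted p = 6.29e-09) in VEGF-A, 0.31 ± 0.076 (adjusted p = 0.0284) in Dll4-Fc and -0.40 ± 0.082 (adjusted p = 0.0182) in VEGF Trap (log2 difference ± standard error). The Dll4-Fc call of Cdca8 was lost in 9 of 19 alternatives, among them leaving out any single hFc array (adjusted p of 0.06 to 0.0782), averaging hFc 1 and hFc 2 (0.0664) and taking the mean of all its probes (0.139, adjusted p = 0.775). Its VEGF Trap call was lost in 3 of 18. Birc5 was at 1.24, 1.17, 1.38, 1.103 and 0.87 on the VEGF-A arrays, -0.35, 0.049, -0.42 and -0.27 on the Dll4-Fc arrays, -1.79, -1.33 and -1.32 on the VEGF Trap arrays and -0.95, -1.08, -1.14 and -0.90 on the hFc arrays. It rose 4.51-fold in VEGF-A (adjusted p = 1.44e-08) and 1.71-fold in Dll4-Fc (adjusted p = 0.00231), with -0.46 (adjusted p = 0.0913) in VEGF Trap, although no VEGF Trap array overlapped hFc. Incenp changed least of the 3, at 0.21, 0.30, 0.28, 0.14 and 0.097 on the VEGF-A arrays, -0.061, 0.22, -0.11 and 0.10 on the Dll4-Fc arrays, 0.081, 0.042 and 0.10 on the VEGF Trap arrays and -0.054, -0.18, -0.28 and -0.17 on the hFc arrays. Every VEGF-A array lay above every hFc array but the rise was 1.298-fold (adjusted p = 0.00477), and VEGF Trap arrays also lay above hFc, by 0.25 (adjusted p = 0.129).

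The spindle checkpoint holds anaphase back until every chromosome is attached. Of its 4 measured genes 3 rose in VEGF-A, 1 rose in Dll4-Fc and 3 fell in VEGF Trap. Bub1, a checkpoint kinase at kinetochores, was at 1.17, 1.36, 1.60, 1.196 and 1.15 on the VEGF-A arrays, -0.26, -0.23, -0.17 and -0.16 on the Dll4-Fc arrays, -1.80, -1.58 and -1.54 on the VEGF Trap arrays and -1.09, -0.62, -0.83 and -0.52 on the hFc arrays. The 4 groups were apart on every array, and Bub1 rose 4.17-fold in VEGF-A (adjusted p = 9.85e-09), rose 1.47-fold in Dll4-Fc (adjusted p = 0.0146) and fell 1.84-fold in VEGF Trap (adjusted p = 0.00325). The Dll4-Fc call of Bub1 was lost in 2 of 19 alternatives. They were the Cy3 channel alone (0.219, adjusted p = 0.534) and normexp with loess (0.377, adjusted p = 0.109). Ttk, the kinase Mps1 that starts checkpoint signalling, was at 1.11, 1.18, 1.36, 1.17 and 1.09 on the VEGF-A arrays, -0.16, -0.048, -0.17 and -0.061 on the Dll4-Fc arrays, -1.28, -0.93 and -1.63 on the VEGF Trap arrays and -0.39, -0.30, -0.35 and -0.33 on the hFc arrays. All VEGF Trap arrays were well under the closely spaced hFc arrays. Ttk fell by 0.94 on the log2 scale in VEGF Trap (adjusted p = 0.000942), and rose 2.87-fold in VEGF-A (adjusted p = 9.43e-08). The fall rests on 1 of 2 Ttk probes: the dimmer one gave 0.14 (adjusted p = 0.825), and the mean of both gave -0.399 (adjusted p = 0.168).

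Mad2l1, which binds and holds Cdc20, was at 0.20, 0.26, 0.52, 0.43 and 0.46 on the VEGF-A arrays, 0.12, -0.18, 0.12 and 0.029 on the Dll4-Fc arrays, -0.35, -0.38 and -0.44 on the VEGF Trap arrays and -0.037, 0.13, 0.11 and -0.046 on the hFc arrays. VEGF-A arrays were above and VEGF Trap arrays below all hFc arrays, by 0.33 ± 0.085 (adjusted p = 0.0197) and -0.43 ± 0.096 (adjusted p = 0.0278), while Dll4-Fc arrays overlapped hFc. The VEGF-A call of Mad2l1 was lost when slide 3 alone stood for VEGF-A (0.188, adjusted p = 0.243), with normexp and loess (0.238, adjusted p = 0.0857), and without hFc 1 (adjusted p = 0.0608) or hFc 4 (adjusted p = 0.061). Its VEGF Trap call was lost without any single VEGF Trap array, without hFc 2 or hFc 3, and with hFc 1 and hFc 2 averaged (adjusted p of 0.0522 to 0.1). BubR1 (Bub1b), the partner of Mad2l1 in that inhibitor, was at -0.028, -0.039, 0.61, 0.14 and -0.025 on the VEGF-A arrays, -0.19, 0.082, -0.33 and 0.38 on the Dll4-Fc arrays, 0.64, 0.095 and -0.30 on the VEGF Trap arrays and -0.12, -0.37, -0.11 and -0.27 on the hFc arrays. Each VEGF-A array again exceeded each hFc array, but VEGF-A 3 stood far above the other 4 and the difference of 0.35 was not called (adjusted p = 0.288). Its VEGF Trap arrays spanned almost a log2 unit.

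The anaphase-promoting complex (APC/C) ends mitosis by marking securin and cyclin B for destruction. Of the 5 genes around it 4 rose in VEGF-A, with Ube2c first of all 48. Ube2c, the enzyme that hands ubiquitin to the complex, was at 1.49, 1.43, 1.70, 1.56 and 1.302 on the VEGF-A arrays, -0.46, -0.42, -0.66 and -0.53 on the Dll4-Fc arrays, -1.96, -1.53 and -1.61 on the VEGF Trap arrays and -1.15, -1.21, -1.15 and -1.06 on the hFc arrays. Its groups lay well apart and the hFc arrays differed by under 0.2. The log2 difference from hFc was 2.64 ± 0.096 (adjusted p = 9.89e-11) in VEGF-A, a 6.22-fold rise, 0.62 ± 0.10 (adjusted p = 0.00126) in Dll4-Fc and -0.56 ± 0.11 (adjusted p = 0.0143) in VEGF Trap. Cdc20, the activator that the checkpoint holds, was at 0.95, 0.96, 1.19, 1.06 and 1.00 on the VEGF-A arrays, -0.24, -0.10, -0.30 and -0.23 on the Dll4-Fc arrays, -1.38, -1.098 and -1.09 on the VEGF Trap arrays and -0.73, -0.67, -0.68 and -0.51 on the hFc arrays. The order was the same, with a rise of 3.21-fold in VEGF-A (adjusted p = 1.36e-09) and 1.35-fold in Dll4-Fc (adjusted p = 0.00479) and a fall of 1.45-fold in VEGF Trap (adjusted p = 0.00549).

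Cdca3, a ubiquitin ligase adaptor for mitotic entry, was at 0.84, 0.76, 0.83, 0.66 and 0.58 on the VEGF-A arrays, 0.12, 0.36, -0.048 and -0.15 on the Dll4-Fc arrays, -0.67, -0.23 and -0.26 on the VEGF Trap arrays and -0.13, -0.40, -0.42 and -0.22 on the hFc arrays. It rose 2.04-fold in VEGF-A (adjusted p = 2.11e-05), while its Dll4-Fc and VEGF Trap arrays overlapped hFc. Separase (Espl1), the protease that cuts cohesin, rose 1.41-fold in VEGF-A (adjusted p = 0.000241). Securin (Pttg1), which holds separase back, was at -0.048, -0.11, 0.27, 0.26 and 0.16 on VEGF-A arrays, 0.21, 0.54, 0.29 and 0.20 on Dll4-Fc arrays, -0.41, 0.14 and -0.40 on VEGF Trap arrays and 0.33, -0.14, -0.13 and -0.039 on hFc arrays. The groups overlapped and Pttg1 was called in no comparison with hFc (VEGF-A 0.10, adjusted p = 0.711). The 12 measured core subunits of the APC/C and its other activator Fzr1, a list of genes outside the 48, gave 0 calls in VEGF-A against hFc by limma (1 higher and 1 lower at an unadjusted p under 0.05), with a median difference of 0.038 and a range of -0.15 to 0.27.

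Kinetochores join chromosomes to spindle fibres. All 5 kinetochore genes rose in VEGF-A, 2 rose in Dll4-Fc and 1 fell in VEGF Trap. Nuf2 and Ndc80 belong to the same microtubule-binding complex. Nuf2 was at 1.00, 0.99, 1.15, 0.94 and 0.85 on the VEGF-A arrays, 0.017, 0.15, -0.035 and -0.13 on the Dll4-Fc arrays, -1.22, -0.76 and -0.78 on the VEGF Trap arrays and -0.37, -0.43, -0.43 and -0.30 on the hFc arrays. It was called in all 3 comparisons with hFc, at 1.37 ± 0.096 (adjusted p = 9.62e-08) in VEGF-A, 0.38 ± 0.10 (adjusted p = 0.0447) in Dll4-Fc and -0.54 ± 0.11 (adjusted p = 0.018) in VEGF Trap. The Dll4-Fc call of Nuf2 was lost in 10 of 19 alternatives, among them leaving out any single hFc array (adjusted p of 0.0617 to 0.126) or Dll4-Fc 1, 2 or 3 (0.0844 to 0.139), and its VEGF Trap call in 2 of 18. Ndc80 was at 1.01, 1.14, 1.46, 0.40 and 1.12 on the VEGF-A arrays, 0.041, -0.20, -0.024 and -0.042 on the Dll4-Fc arrays, -0.99, -1.35 and -1.03 on the VEGF Trap arrays and -0.91, -0.61, -0.77 and -0.68 on the hFc arrays. VEGF-A 4 was far lower than the other VEGF-A arrays but still above all others, and Ndc80 rose 3.41-fold in VEGF-A (adjusted p = 1.61e-06) and 1.61-fold in Dll4-Fc (adjusted p = 0.0283). The Dll4-Fc call of Ndc80 was lost in 9 of 19 alternatives, with 0.126 (adjusted p = 0.831) in the Cy3 channel alone.

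Cenpe, a kinesin that moves chromosomes to the spindle middle, was at 0.75, 0.80, 0.67, 0.62 and 0.60 on the VEGF-A arrays, -0.060, -0.037, -0.15 and 0.063 on the Dll4-Fc arrays, -0.61, -0.39 and -0.41 on the VEGF Trap arrays and -0.45, -0.22, -0.27 and -0.29 on the hFc arrays. It rose 1.99-fold in VEGF-A (adjusted p = 1.47e-07), and in Dll4-Fc its arrays lay above hFc without a call (0.26, adjusted p = 0.0784). Cenpf, a large kinetochore protein, rose 2.23-fold in VEGF-A (adjusted p = 3.74e-05). Cenpa, the histone that marks centromeres, had the dimmest probe of the 48 and the largest standard error, with a difference of 0.97 ± 0.28 (adjusted p = 0.0372) in VEGF-A. The Cenpa call was lost without VEGF-A 1, 2, 3 or 5 or without any single hFc array, at adjusted p of 0.0533 to 0.105, and with hFc 1 and hFc 2 averaged (0.0701).

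Of the 8 spindle genes 5 rose in VEGF-A, 2 rose in Dll4-Fc and 2 fell in VEGF Trap. Kif2c, a kinesin that shortens microtubules at wrongly attached kinetochores, was at 1.13, 1.39, 1.43, 1.05 and 1.14 on the VEGF-A arrays, -0.21, -0.074, -0.28 and 0.16 on the Dll4-Fc arrays, -1.05, -1.14 and -1.05 on the VEGF Trap arrays and -0.90, -0.88, -0.75 and -0.71 on the hFc arrays. It rose 4.11-fold in VEGF-A (adjusted p = 2e-09) and 1.64-fold in Dll4-Fc (adjusted p = 0.000534), and the VEGF Trap arrays were close to each other and just under hFc (-0.27, adjusted p = 0.192). Nusap1, which bundles spindle fibres near chromatin, was at 1.02, 0.93, 1.01, 0.83 and 0.69 on the VEGF-A arrays, 0.12, 0.028, 0.069 and 0.025 on the Dll4-Fc arrays, -1.13, -0.91 and -1.01 on the VEGF Trap arrays and -0.67, -0.47, -0.53 and -0.44 on the hFc arrays. The groups did not overlap, and the differences from hFc were 1.43 ± 0.079 (adjusted p = 7.08e-09) in VEGF-A, 0.59 ± 0.083 (adjusted p = 0.000338) in Dll4-Fc and -0.49 ± 0.090 (adjusted p = 0.00999) in VEGF Trap. With the mean of all its probes Nusap1 gave 0.262 (adjusted p = 0.758) in Dll4-Fc and -0.494 (adjusted p = 0.312) in VEGF Trap. Its VEGF Trap call was lost in 3 of 18 alternatives. Tpx2, the activator of Aurora A on the spindle, was at 1.37, 1.29, 1.4001, 0.97 and 0.94 on the VEGF-A arrays, -0.44, 0.054, -0.50 and -0.50 on the Dll4-Fc arrays, -1.204, -1.15 and -1.05 on the VEGF Trap arrays and -0.68, -0.85, -0.87 and -0.84 on the hFc arrays. It rose 4.02-fold in VEGF-A (adjusted p = 3.11e-08), and Dll4-Fc 2 stood well above the other Dll4-Fc arrays, and the group was not called against hFc (0.46, adjusted p = 0.0689).

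Hmmr, a spindle-binding protein, rose 4.64-fold in VEGF-A (adjusted p = 1.01e-05), while its Dll4-Fc and VEGF Trap arrays overlapped hFc. Kif11, the kinesin that pushes the poles apart, rose 1.73-fold in VEGF-A (adjusted p = 0.000256) and fell 1.53-fold in VEGF Trap (adjusted p = 0.0212), with a difference of -0.0029 in Dll4-Fc. The other 3 spindle genes were not called in any comparison with hFc. Spag5 (astrin) was at 0.056, 0.15, 0.64, 0.19 and -0.029 on the VEGF-A arrays, -0.40, 0.057, -0.33 and 0.33 on the Dll4-Fc arrays, 0.43, 0.63 and -0.074 on the VEGF Trap arrays and -0.019, -0.25, -0.086 and -0.10 on the hFc arrays. Its VEGF-A arrays overlapped hFc, with VEGF-A 3 alone well above the pool, and the difference was 0.31 (adjusted p = 0.296). Kif22, a chromosome-bound kinesin, differed by 0.14 (adjusted p = 0.291) in VEGF-A, and Dlgap5, a microtubule stabiliser, by -0.12 (adjusted p = 0.635). The Dlgap5 probe was the dimmest of the set after that of Cenpa, and the Kif22 probe was the brightest.

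Cytokinesis genes build the midzone and the cleavage furrow. All 7 rose in VEGF-A, 1 rose in Dll4-Fc and 1 fell in VEGF Trap. Kif20a, a midzone kinesin, was at 0.97, 0.92, 0.93, 0.89 and 0.76 on the VEGF-A arrays, -0.12, -0.051, -0.22 and -0.22 on the Dll4-Fc arrays, -1.13, -0.89 and -0.79 on the VEGF Trap arrays and -0.68, -0.66, -0.76 and -0.58 on the hFc arrays. No group overlapped another. Kif20a rose 2.96-fold in VEGF-A (adjusted p = 1.89e-09) and 1.43-fold in Dll4-Fc (adjusted p = 0.00078), with -0.26 (adjusted p = 0.102) in VEGF Trap. Kif23, the motor of centralspindlin, was at 1.41, 1.33, 1.75, 1.18 and 1.13 on the VEGF-A arrays, -0.64, -0.41, -0.69 and -0.47 on the Dll4-Fc arrays, -1.48, -1.46 and -1.45 on the VEGF Trap arrays and -1.15, -0.83, -0.88 and -0.71 on the hFc arrays. The VEGF Trap arrays were nearly equal and under all hFc arrays, and Kif23 rose 4.76-fold in VEGF-A (adjusted p = 4.53e-09) and fell 1.48-fold in VEGF Trap (adjusted p = 0.0351).

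Prc1, which crosslinks midzone microtubules, was at 1.26, 0.76, 1.13, 1.01 and 1.12 on the VEGF-A arrays, -0.38, -0.42, -0.46 and -0.52 on the Dll4-Fc arrays, -1.29, -1.15 and -0.92 on the VEGF Trap arrays and -0.85, -0.66, -0.74 and -0.51 on the hFc arrays. It rose 3.36-fold in VEGF-A (adjusted p = 1.67e-08), while Dll4-Fc overlapped hFc and VEGF Trap lay under it uncalled (-0.43, adjusted p = 0.06). Anillin (Anln), the furrow scaffold, rose 4.204-fold in VEGF-A (adjusted p = 2.53e-06) and had no higher mean in Dll4-Fc than in hFc (-0.058). Kif4, Racgap1 and Ect2, a chromosome-arm kinesin, the partner of Kif23 and the exchange factor that turns on RhoA at the furrow, rose by 1.01, 0.73 and 0.70 on the log2 scale in VEGF-A. In Dll4-Fc those 3 were at -0.018, 0.069 and -0.18, none called.

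The last role is chromosome structure, with condensin I, topoisomerase II and the coat protein Ki-67. Of its 5 genes 4 rose in VEGF-A, 1 rose in Dll4-Fc and 2 fell in VEGF Trap. Ncapg, a condensin I subunit, was at 1.35, 1.16, 1.404, 1.43 and 1.22 on the VEGF-A arrays, -0.23, -0.24, -0.43 and 0.063 on the Dll4-Fc arrays, -1.81, -1.57 and -1.48 on the VEGF Trap arrays and -1.09, -0.73, -1.196 and -1.06 on the hFc arrays. The groups did not overlap and the differences from hFc were 2.33 ± 0.11 (adjusted p = 2.1e-09) in VEGF-A, 0.81 ± 0.12 (adjusted p = 0.000583) in Dll4-Fc, the largest rise of the 48 there, and -0.60 ± 0.13 (adjusted p = 0.0239) in VEGF Trap. Top2a, which untangles sister chromatids, was at 1.45, 1.47, 1.28, 1.03 and 1.12 on the VEGF-A arrays, -0.47, -0.14, -0.48 and -0.20 on the Dll4-Fc arrays, -1.63, -1.81 and -1.62 on the VEGF Trap arrays and -1.66, -0.79, -1.27 and -0.45 on the hFc arrays. Its hFc arrays ran across more than a log2 unit, hFc 1 being as low as the VEGF Trap arrays and hFc 4 as high as a Dll4-Fc array. Top2a rose 4.97-fold in VEGF-A (adjusted p = 6.17e-07), with 0.72 (adjusted p = 0.062) in Dll4-Fc and -0.64 (adjusted p = 0.114) in VEGF Trap. Without hFc 4 the Dll4-Fc difference became 0.92 (adjusted p = 0.00691), and without hFc 1 the VEGF Trap difference became -0.85 (adjusted p = 0.0314).

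Mki67, the gene of the proliferation marker Ki-67, was at 1.38, 1.304, 1.07, 0.94 and 0.84 on the VEGF-A arrays, 0.0038, -0.18, -0.35 and 0.013 on the Dll4-Fc arrays, -1.69, -1.403 and -1.31 on the VEGF Trap arrays and -1.32, -0.72, -0.86 and -0.22 on the hFc arrays. The same pair, hFc 1 and hFc 4, marked the ends of the hFc range. Mki67 rose 3.70-fold in VEGF-A (adjusted p = 3.42e-06), with 0.65 (adjusted p = 0.0803) in Dll4-Fc and -0.69 (adjusted p = 0.0797) in VEGF Trap, where the calls again came without hFc 4 (Dll4-Fc 0.84, adjusted p = 0.00906) or hFc 1 (VEGF Trap -0.87, adjusted p = 0.0291). Ncaph, the kleisin of condensin I, rose 1.65-fold in VEGF-A (adjusted p = 0.00233) and fell 1.62-fold in VEGF Trap (adjusted p = 0.0252). Ncapd2, a further condensin I subunit, was not called, at 0.18 (adjusted p = 0.332) in VEGF-A.

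**Figure D3:**
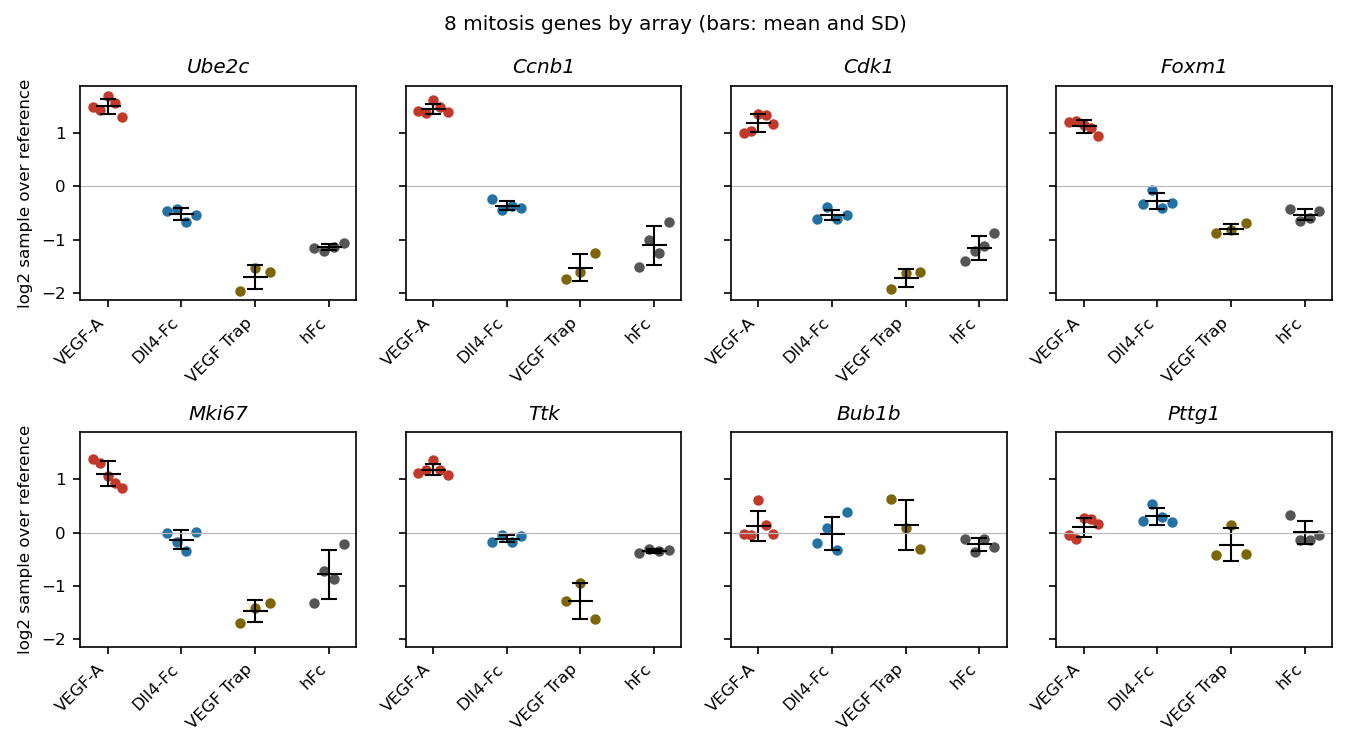
Log2 of sample over reference on every array for 8 mitotic genes, by treatment, with the mean and SD as bars. In the panels of Ube2c, Ccnb1, Cdk1, Foxm1, Mki67 and Ttk all 5 VEGF-A arrays lie above every other array, while the panels of Bub1b and Pttg1 show overlapping groups.

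The question of VEGF-A against hFc is how the retina responds to added VEGF-A. The hFc pups received 4 µg of the Fc part and the VEGF-A pups 1 µg of VEGF-A, on other slides. Injected amount, the Fc part and slide therefore cannot be told apart from VEGF-A here. Of the 47 mitotic genes with a value on every array of both groups, 42 had all VEGF-A arrays above all hFc arrays, against 7.18% of all genes, and 0 had them all below, against 6.91%. The 6 uncalled genes were Bub1b, Dlgap5, Spag5, Pttg1, Kif22 and Ncapd2, with differences from -0.12 to 0.35. The called ones ran from 0.33 (Mad2l1) to 2.64 (Ube2c), the next largest being Ccnb1, Pbk, Cdk1 (2.34), Ncapg and Top2a. Brighter probes tended to smaller differences, with a Spearman correlation of -0.42 over the 48 genes between mean intensity and log2 difference, a description of genes measured on the same arrays. The mean of all probes of a gene in place of the brightest lowered the median to 1.099.

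Second probes gave the same sign for most genes. There were 31 further probes of 24 of the genes, and 30 of them had the sign of the chosen probe in VEGF-A against hFc. Of 27 whose gene was called, 20 were called the same way and 0 the opposite way. Second probes of Ccnb1 gave 2.37 and 2.11 and that of Kif23 gave 2.402. The second Ttk probe gave 2.02, and 1 of Cdca8, a dim probe, gave -0.40 uncalled.

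Other proliferation genes moved in VEGF-A too. Of 48 further mitotic genes outside the set 33 rose and 0 fell, with a median of 0.82, led by Cep55, an abscission protein (2.64, 6.24-fold, adjusted p = 7.17e-11), Kif18b (1.95, 3.87-fold, adjusted p = 1.75e-08) and Oip5, a centromere protein (1.197, 2.29-fold, adjusted p = 2.04e-08). Of 32 S phase genes 19 rose and 0 fell, with a median of 0.49, led by Rrm2, a ribonucleotide reductase subunit (1.77, 3.42-fold, adjusted p = 5.13e-08), Mcm6 of the replicative helicase (1.03, 2.04-fold, adjusted p = 8.84e-08) and Orc1 of the origin complex (1.09, 2.14-fold, adjusted p = 2.57e-07). Both lists had lower medians than the 48 genes, and no test was run between lists.

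Markers of cell types moved in the same comparison. Of 14 endothelial markers 10 rose and 1 fell, with a median of 1.12. The list mean was 0.59 to 0.67 on VEGF-A arrays and -0.28 to -0.23 on hFc arrays. Mmrn2 (1.59), Egfl7 (1.41) and Esam (0.99) had the lowest p. Erythroid markers rose in 4 of 5, and of 9 mural markers 4 rose and 2 fell. Astrocyte markers rose in 2 of 5 (Gfap 2.36 and Aldh1l1 0.51), but their median difference was 0.059 and 2 of the 5 were lower than in hFc. The astrocyte list means were 0.17 to 0.48 on VEGF-A arrays and -0.26 to -0.12 on hFc arrays. Ganglion cell markers were low on VEGF-A 1 and VEGF-A 2, the VEGF-A arrays of slide 3, with list means of -0.75 and -0.69, and lay between -0.019 and 0.096 on the other VEGF-A arrays. Of 8 retinal progenitor markers 0 rose and 1 fell by limma (0 and 2 at an unadjusted p under 0.05), and 1 of 8 microglia markers rose. Their part in the rise of the mitotic genes was not tested.

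**Figure D4:**
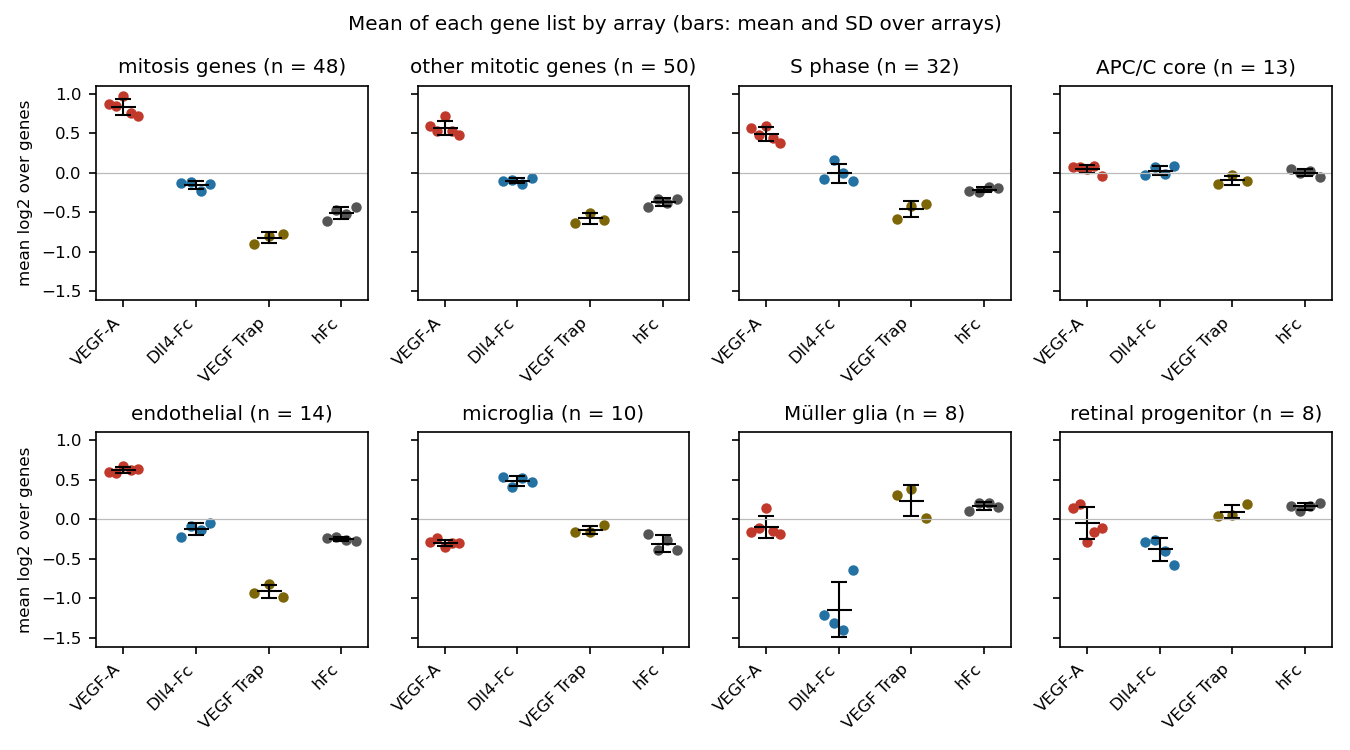
Mean log2 of sample over reference per array for the 48 mitotic genes, other mitotic genes, S phase genes, APC/C core subunits and 4 marker lists (n, genes kept), by treatment, with mean and SD over arrays. Each mean covers the genes with a value on that array, so hFc means of the other mitotic, APC/C core and microglia lists cover fewer genes. Mitotic, S phase and endothelial lists are highest on VEGF-A arrays and lowest on VEGF Trap arrays, APC/C core subunits stay near 0 in every group, and microglia and Müller glia lists differ most on Dll4-Fc arrays.

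In the comparison of Dll4-Fc with hFc, which asks what the Dll4 part adds to the Fc part, the 16 called mitotic genes rose by 0.31 (Cdca8) to 0.81 (Ncapg). They were Ccnb1, Ccnb2 and Cdk1, the kinases Melk and Pbk, Birc5 and Cdca8, Bub1, Ube2c and Cdc20, Ndc80 and Nuf2, Kif2c and Nusap1, Kif20a, and Ncapg. The lowest p belonged to Nusap1 (0.59 ± 0.083, adjusted p = 0.000338), Kif2c (0.71 ± 0.11, adjusted p = 0.000534) and Ncapg (0.81 ± 0.12, adjusted p = 0.000583). With the mean of all its probes Nusap1 was not called (0.262, adjusted p = 0.758). All Dll4-Fc arrays lay above all hFc arrays in 24 of 47 genes, against 5.66% of all genes, and below them in 0, against 4.18%. Of the 7 cytokinesis genes 1 was called, and Ect2 (-0.18), Anln (-0.058) and Kif4 (-0.018) had means slightly under hFc. Leaving out single arrays gave 12 to 16 calls, and 7 genes (Birc5, Ccnb1, Ccnb2, Kif20a, Kif2c, Ncapg and Ube2c) were called under every alternative run. Of the 31 further probes 21 had the sign of the chosen probe in Dll4-Fc against hFc. Of 7 whose gene was called, 1 was called the same way and 0 the opposite way.

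Beside this, 11 of 48 further mitotic genes rose in Dll4-Fc and 0 fell, led by the phosphatase Cdc25b (0.82), Cep55 (0.72) and Cdca5 (0.67), and 6 of 32 S phase genes rose. Endothelial markers rose in 4 of 14, with list means of -0.22 to -0.046 on Dll4-Fc arrays and -0.28 to -0.23 on hFc arrays. Of 8 microglia markers with a value in hFc 6 rose and 1 fell. The microglia list means were 0.41 to 0.54 on Dll4-Fc arrays and -0.39 to -0.19 on hFc arrays. They cover up to 10 markers on Dll4-Fc arrays and at most 8 on hFc arrays, so the ranges are of unlike sets. Müller glia markers fell in 7 of 8, retinal progenitor markers fell in 2 of 8 (Lhx2 -1.04 and Hes5 -1.31), with list means of -0.58 to -0.27 on Dll4-Fc arrays and 0.11 to 0.21 on hFc arrays, and all 8 interferon response genes rose, among them Bst2 (3.34), Isg15 (2.94) and Oasl2 (2.51). The part of these cell types in the rise of the mitotic genes was not tested.

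The comparison of VEGF Trap with hFc asks what binding the retina's own VEGF changes. As the labels give no age or dose for VEGF Trap, any difference in age cannot be told apart from treatment, nor can slide. In this comparison 14 mitotic genes fell by 0.40 to 0.94. Ttk, Bub1 (-0.88 ± 0.13, adjusted p = 0.00325) and Cdc20 (-0.54 ± 0.090, adjusted p = 0.00549) had the lowest p. The others were Ncaph, Melk, Kif11, Ncapg, Kif23, Cdk1, Ube2c, Nuf2, Nusap1, Mad2l1 and Cdca8. All VEGF Trap arrays lay below all hFc arrays in 22 of 47 genes, where 12.3% of all genes did, and above them in 2, where 11% did. The count rested on few arrays: without VEGF Trap 1 it was 3 (Bub1, Cdc20 and Ttk), and without hFc 2 it was 8, with the median between -0.38 and -0.29 when any single array was left out. Of the 31 further probes 24 had the sign of the chosen probe, and of 8 whose gene was called 2 were called the same way and 0 the opposite way. VEGF Trap 1 was the lowest of the 3 VEGF Trap arrays in 32 of 48 genes, with no such count made over all genes.

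Of 48 further mitotic genes 10 fell and 0 rose in VEGF Trap, led by Depdc1b (-0.74), Trip13 (-0.62) and Cenpk (-0.66), and 7 of 32 S phase genes fell. Endothelial markers fell in 12 of 14, led by Tie1 (-0.79), Mmrn2 (-0.86) and Icam2 (-0.88), with list means of -0.98 to -0.82 on VEGF Trap arrays and -0.28 to -0.23 on hFc arrays. Mural markers fell in 3 of 9, with list means of -0.99 to -0.76 on VEGF Trap arrays and -0.70 to -0.44 on hFc arrays. Erythroid markers gave 0 calls of 5 by limma (3 lower at an unadjusted p under 0.05), with list means of -1.54 to -1.11 on VEGF Trap arrays and -0.96 to -0.074 on hFc arrays. Of 8 progenitor markers 1 fell, Hes5 (-0.59). Their part in the fall of the mitotic genes was not tested.

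**Figure D5:**
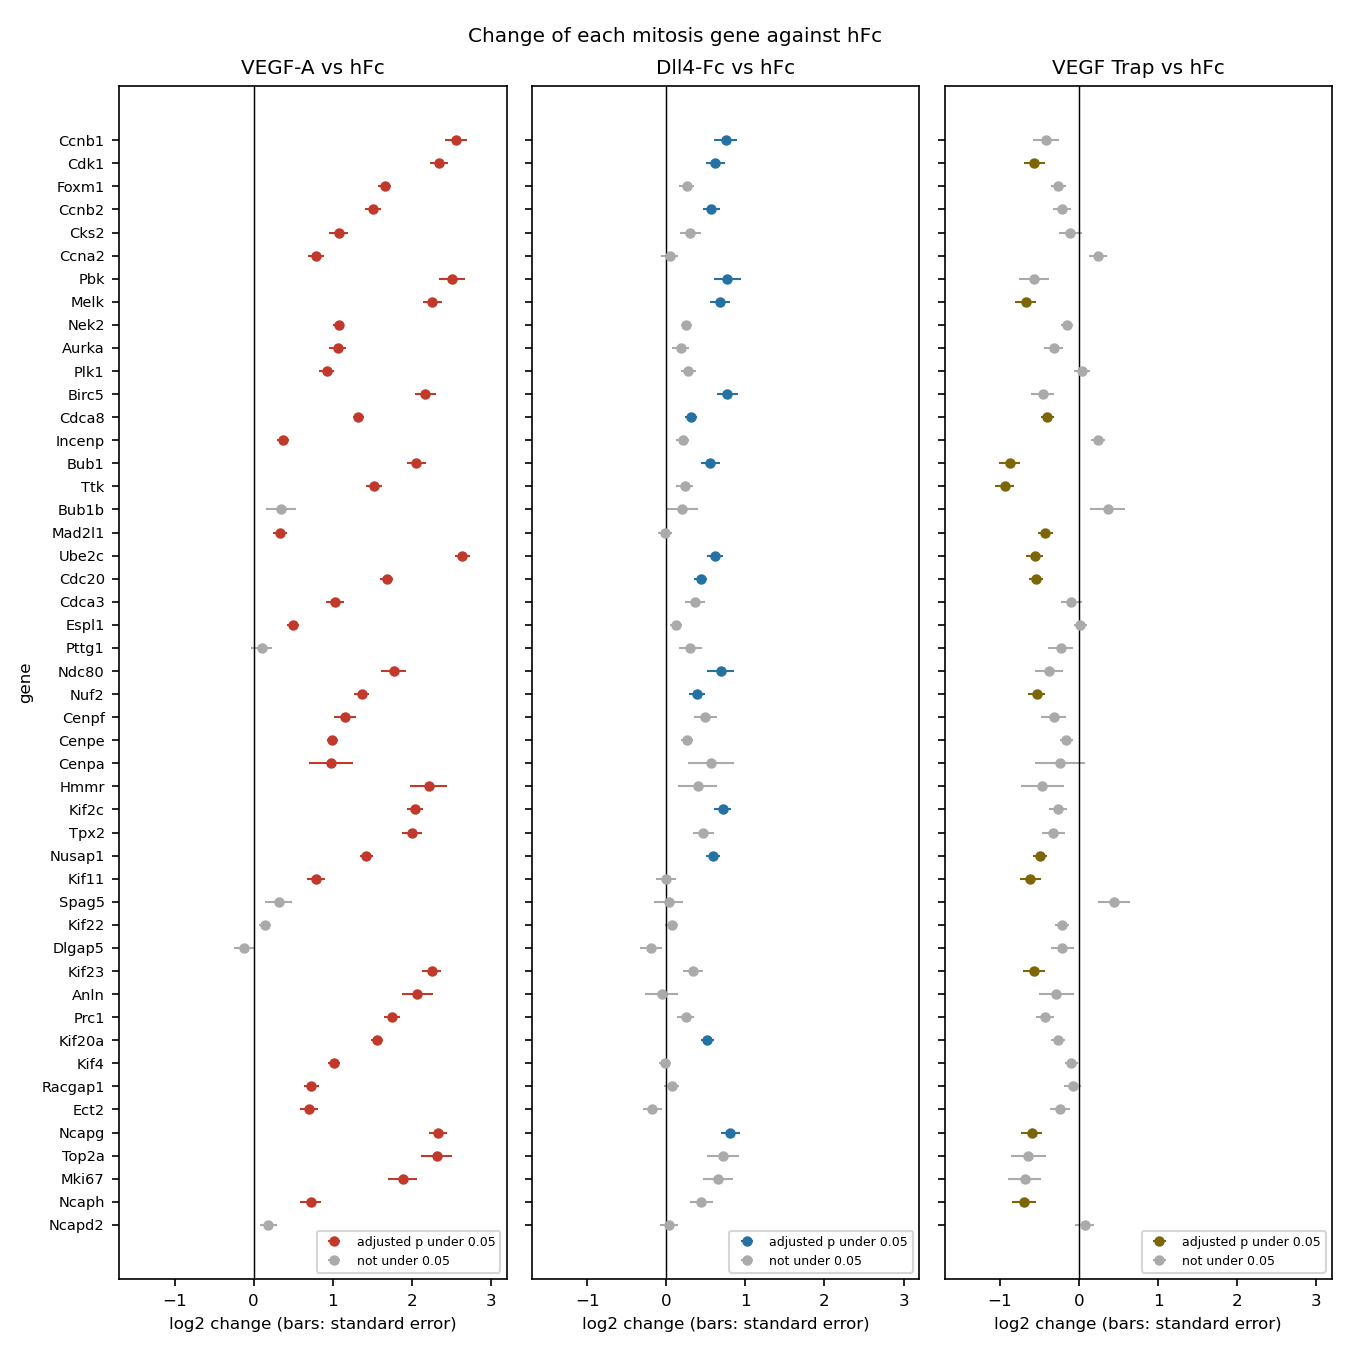
Log2 difference from hFc of each of the 48 mitotic genes with its standard error, for VEGF-A, Dll4-Fc and VEGF Trap, coloured where the adjusted p is under 0.05 and grey otherwise. Most points lie right of 0 in VEGF-A (42 called), less far right in Dll4-Fc (16 called) and left of 0 in VEGF Trap (14 called), and the 3 panels share the same 4 hFc arrays.

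VEGF-A and VEGF Trap arrays shared 2 slides, so this comparison can be made within a slide. Any difference in age still cannot be told apart from treatment, as the labels give no age for VEGF Trap. In VEGF-A against VEGF Trap 42 of 48 mitotic genes rose and 0 fell, where 10.6% of all genes rose and 8.68% fell, and the median difference was 1.73 (3.31-fold) against -0.032 over all genes. In 42 of 48 all VEGF-A arrays lay above all VEGF Trap arrays, against 12.6% of all genes, and in 0 below them, against 12.4%. Ube2c differed by 3.195 ± 0.10 (9.16-fold, adjusted p = 2.35e-11), Pbk by 3.08 ± 0.18 (adjusted p = 8.19e-09) and Ccnb1 by 2.98 ± 0.15 (adjusted p = 2.25e-09). Kif22 was called here (0.35 ± 0.082, adjusted p = 0.00788), and Incenp was not (0.13, adjusted p = 0.313).

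With slide as a fixed block 42 genes rose and the median was 1.71. Within slide 3, with 2 arrays of each group, 40 rose and the median was 1.79. On slide 4, with 3 VEGF-A arrays and 1 VEGF Trap array, the median was 1.60, a value given without a test. The sign was positive for 45 of 48 genes on slide 3 and 47 of 48 on slide 4, and Ube2c differed by 3.21 on slide 3 and 3.13 on slide 4.

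Set against VEGF-A, Dll4-Fc retinas had lower mitotic gene levels at unequal doses of 4 µg and 1 µg. In Dll4-Fc against VEGF-A 39 of 48 fell and 0 rose, where 6.92% of all genes fell and 6.35% rose, with a median of -0.96 (1.95-fold lower) against 0.025 over all genes. In 39 of 48 all Dll4-Fc arrays lay below all VEGF-A arrays, against 7.35% of all genes, and in 0 above them, against 7.02%. The largest falls were those of Anln (-2.13 ± 0.20, adjusted p = 1.59e-06), Ube2c (-2.01 ± 0.096, adjusted p = 1.81e-09) and Kif23 (-1.91 ± 0.12, adjusted p = 3.05e-08). All 6 genes of the cyclin group and all 7 of cytokinesis fell, including Cks2 (-0.77 ± 0.12, adjusted p = 0.000417), Ccna2 (-0.75 ± 0.097, adjusted p = 5.29e-05) and Ect2 (-0.87 ± 0.11, adjusted p = 4.78e-05). The 9 uncalled genes were the 6 not called in VEGF-A against hFc together with Incenp (-0.17), Cenpa (-0.41) and Ncaph (-0.28). Pttg1 alone was higher in Dll4-Fc, by 0.20 (adjusted p = 0.412).

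Within a group the 48 genes leaned to the same arrays, and no such count was made over all genes. VEGF-A 3 was the highest of the 5 VEGF-A arrays in 28 of 48 genes and VEGF-A 5 the lowest in 26. Dll4-Fc 2 was the highest Dll4-Fc array in 25 of 48, and hFc 1 the lowest hFc array in 21 of 47 and hFc 4 the highest in 24. The 14 genes outside the group order given above were Ccna2, Plk1, Incenp, Bub1b, Mad2l1, Pttg1, Espl1, Kif11, Dlgap5, Spag5, Kif4, Anln, Ect2 and Ncapd2. In Plk1 (0.037), Incenp (0.25), Ccna2 (0.24), Espl1 (0.018), Bub1b (0.36), Spag5 (0.44) and Ncapd2 (0.070) VEGF Trap had a higher mean than hFc, with none called. With the mean of all its probes Spag5 was called higher in VEGF Trap than in hFc (0.614, adjusted p = 0.0242).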

How the data were processed

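Each of 16 arrays held a retina sample in Cy3 and the common reference in Cy5, with no dye swap. Per the file headers, intensity values came from Agilent Feature Extraction (9.5.1.1), and the LogRatio column is log10 of Cy5 over Cy3 after background subtraction, detrending and dye normalization. A series matrix deposited by the authors holds natural log ratios, sample over reference, at a correlation of at least 0.999 per array with the turned LogRatio column, with 25.4 to 27.9% of cells empty. Its column medians were -0.00581 to 0.0218. The genome build of the probes is not stated in the files or labels used here.

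LogRatio was turned to log2 of sample over reference. Outlier and control spots were left out, spots of a probe were averaged, and probes were kept when marked well above background in the Cy3 channel of 3 or more arrays. Each gene took its probe of highest mean intensity. The 86 probes of the 48 genes were named by current or older symbols from a RefSeq table. A single limma fit (3.58.1, R 4.3.3) of 4 groups over 16 arrays gave moderated statistics, 2-sided, adjusted within each of 5 comparisons over 22767 genes (against hFc) or 23337 genes, with 12 residual and 2.32 prior degrees of freedom. The median standard error over the comparisons was 0.12 to 0.14, and the number of arrays limits the precision. Replicates carry numbers in the order of the samples only. The steps were tested on simulated arrays.

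The mitotic genes, the other lists and the tests were chosen with earlier results of these data known, so no list was tested as a whole. Every array value is given for the 3 genes of lowest p of each of 9 roles in VEGF-A against hFc. The array values of Bub1b, Pttg1 and Spag5 and the second probes named were chosen after their values were seen. Genes outside the 48 are up to 3 called ones of lowest p in a list. The alternatives tried were other signal processing, channel, scaling, filters, probe choice, series matrix values, slide and leaving out arrays. The closing section gives their effect.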

Additional observations from a re-analysis of the deposited data

Results flagged for a closer look

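In 146 groups of 4 or 5 arrays, 9 had an array that stood apart from the rest of its group by Dixon's test, where chance gives about 1 in 20 groups. In VEGF-A, VEGF-A 3 was high for Ccnb2 (0.9752, the next array at 0.8025) and for Bub1b (0.609, the next at 0.1395), and VEGF-A 5 was low for Kif22 (0.06704, the next at 0.2144). In Dll4-Fc, Dll4-Fc 2 was high for Pbk (-0.2081, the next at -0.463) and for Tpx2 (0.05425, the next at -0.4372), and Dll4-Fc 4 was low for Ncaph (-0.1125, the next at 0.3935). In hFc, hFc 1 was low for Kif11 (-0.4693, the next at -0.02147) and high for Tpx2 (-0.6798, the next at -0.8396), and hFc 4 was low for Kif22 (-0.1505, the next at 0.1076). The Pbk call in Dll4-Fc against hFc was lost without Dll4-Fc 2 (0.707, adjusted p = 0.0527), and Ncaph was called there without Dll4-Fc 4 (0.579, adjusted p = 0.0142).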

How the results depend on the processing

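No gene of the 48 that was called changed direction under any alternative, and Spag5, uncalled, was called higher in VEGF Trap than in hFc with the mean of all probes (0.614). Across the alternatives run, 39 of 42 calls remained in every one for VEGF-A against hFc, 7 of 16 for Dll4-Fc against hFc, 2 of 14 (Bub1 and Cdc20) for VEGF Trap against hFc, 40 of 42 for VEGF-A against VEGF Trap with the fit within slide 4 left aside, and 36 of 39 for Dll4-Fc against VEGF-A. For VEGF Trap against hFc the count was 8 without hFc 2 and 3 without VEGF Trap 1, and leaving out single arrays gave 3 to 16. For VEGF-A against VEGF Trap it was 16 within slide 4, where the 1 VEGF Trap array is assumed to vary like the VEGF-A arrays, so that count says nothing about stability. Averaging hFc 1 and hFc 2 gave 41, 13 and 13 calls for VEGF-A, Dll4-Fc and VEGF Trap against hFc. Background correction by normexp with loess moved the median difference to 1.147 for VEGF-A against hFc, 0.2469 for Dll4-Fc against hFc and 1.509 for VEGF-A against VEGF Trap. The mean of all probes of a gene moved it to 1.099 for VEGF-A against hFc and 1.405 for VEGF-A against VEGF Trap. For VEGF-A against VEGF Trap the median was also 1.844 in the Cy3 channel alone, 1.599 within slide 4 and 1.616 to 1.789 without single arrays. The cause of these moves was not tested. Without single arrays the median was 1.314 to 1.376 for VEGF-A against hFc (40 to 42 calls), 0.2813 to 0.3477 for Dll4-Fc against hFc (12 to 16 calls) and -1.013 to -0.9239 for Dll4-Fc against VEGF-A (39 to 40 calls). With slide as a random block the correlation within slides was -0.00182. Because hFc and Dll4-Fc each filled a slide of their own, this value cannot show a slide effect in comparisons with them. Over the genes measured, VEGF-A arrays correlated at 0.4991 to 0.7553 within a slide and at 0.2779 to 0.4142 between slides 3 and 4. No paired analysis was possible because the labels number no replicates across groups, and of the title codes groups share only the first part of 1, that of VEGF-A 4 and VEGF Trap 3. The slide as a fixed block, run for VEGF-A against VEGF Trap, gave 42 calls and a median of 1.713.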

Other observations

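Of 8 measured genes of G1 entry, 6 rose and 0 fell in VEGF-A against hFc, led by Myc (1.44, 2.70-fold, adjusted p = 8.56e-08), the cyclin Ccnd2 (2.38, 5.22-fold, adjusted p = 8.26e-06) and Ccnd3 (0.73, 1.66-fold, adjusted p = 9.36e-05). In Dll4-Fc against hFc 2 rose, Myc (0.91) and Cdk4 (0.29), and in VEGF Trap against hFc 1 fell, Cdk4 (-0.53). Of 13 measured brakes on the cycle, 1 rose and 2 fell in VEGF-A against hFc. The Cdk4 and Cdk6 inhibitor Cdkn2b rose 5.69-fold (adjusted p = 8.93e-09), while Ccng2 (-0.48, adjusted p = 0.00114) and the Cdk inhibitor Cdkn1c (-0.75, adjusted p = 0.00608) fell. In Dll4-Fc against hFc Cdkn1c rose 2.47-fold (adjusted p = 0.000157) and Cdkn2b rose 1.57-fold (adjusted p = 0.0179). By limma 0 of 13 brakes were called in VEGF Trap against hFc, also 0 at an unadjusted p under 0.05.

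Of 11 measured genes of the MuvB complex, its E2F partners and NF-Y, 1 was called in VEGF-A against hFc. It was Mybl2, which encodes B-Myb, at 1.64 (3.12-fold, adjusted p = 2.85e-07), and Tfdp2 was the 1 called in Dll4-Fc against hFc (0.57, adjusted p = 0.00719). The median of the list was -0.025 in VEGF-A and 0.011 in Dll4-Fc.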
